A study of Homo sapiens with 2 samples.

Results

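The aminoacyl-tRNA synthetases are the enzymes that join each amino acid to its tRNA before the ribosome uses it. The genes described here are 35 synthetases, chosen by name and matched by Ensembl ID to current symbols, of 60664 genes in the count files. All 35 were found. Of these, 17 make the enzymes of the cytosol, whose symbols mostly end in 1, and 16 make the enzymes that work inside mitochondria, whose symbols end in 2. GARS1 and KARS1 serve both compartments and were kept apart. The aspartyl-tRNA synthetases are not among the members.

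The RNA came from untreated, wild-type HEK293T cells, an established human line derived from embryonic kidney and carrying the SV40 large T antigen. It was measured in 2 RNA-seq libraries of 1 group, replicates 1 and 2, within a study of R-loop mapping. Replicate 2 is written HEK294T in its cell line field and HEK293T in its title, and it was read by the title. No condition was compared, so the comparisons are between cytosolic and mitochondrial members, between groups of members, and between the libraries, with values after ± the SD over the libraries (n = 2). Nothing in the labels tells whether separate cultures were used, so this spread may be technical. Replicate 1 held 18011638 counts and replicate 2 held 18575058. Of 4 genes known from this line (LIN28B, SIX2, UCHL1 and VIM), each had 443 or more counts in each library. Of 6 markers of other cell types, CD3E and COL1A2 had 0 counts, PTPRC, ALB and PECAM1 had at most 3, and HBB had 0 in replicate 1 and 38 in replicate 2, whose part in the results was not tested.

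As background, human cells run separate translation systems in the cytosol and in mitochondria, and both sets of synthetases are encoded in the nucleus. Several cytosolic synthetases sit in a multi-synthetase complex held together by the scaffold proteins AIMP1, AIMP2 and EEF1E1, while others are free. EPRS1 is a fusion enzyme that charges both glutamate and proline tRNAs. Mitochondria have no glutaminyl-tRNA synthetase of their own type, and EARS2 together with the amidotransferase GatCAB makes glutaminyl-tRNA there. Many cytosolic synthetase genes belong to the ATF4 programme, which cells use when amino acids are short.

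Every synthetase was expressed, and the cytosolic group stood above the mitochondrial group. All 35 members reached 1 CPM (a count relative to the library total) in both libraries, against 65.9% of 19890 protein-coding genes and 27.7% of all genes. The lowest was PARS2, the mitochondrial prolyl enzyme, at 7.33 CPM in replicate 1 and 8.45 CPM in replicate 2, and it alone was under 10 CPM. The 17 cytosolic genes held 0.236% of counts in replicate 1 (exact 95% binomial interval 0.234 to 0.238) and 0.254% in replicate 2 (0.251 to 0.256). The 16 mitochondrial genes held 0.0639% in replicate 1 (0.0627 to 0.0650) and 0.0630% in replicate 2 (0.0619 to 0.0642). The cytosolic sum was thus 3.70 times the mitochondrial sum in replicate 1 and 4.02 times in replicate 2. The intervals cover counting error only, because reads that carry no molecular identifiers may repeat the same molecule.

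The median cytosolic gene had 119 CPM and the median mitochondrial gene 34.5 CPM, against 8.61 CPM for all protein-coding genes. All 17 cytosolic genes lay above the mitochondrial median in CPM, and 1 mitochondrial gene, IARS2, lay above the cytosolic median in the mean of the libraries. The libraries differed here. IARS2 had 127 CPM against a cytosolic median of 117 in replicate 1, and 115 against 126 in replicate 2. In TPM, which divides by gene length before scaling, the medians were 51.9 for cytosolic genes and 16.6 for mitochondrial genes, against 2.88 for all protein-coding genes. The difference between the group medians was 1.57 ± 0.164 on the scale of log2(TPM + 0.1), with 1.46 in replicate 1 and 1.69 in replicate 2. It was larger than the spread between the libraries under each alternative that kept both of them, from 1.36 to 1.89. The members are not replicates of a compartment, and these values describe the lists without a test.

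**Figure D1:**
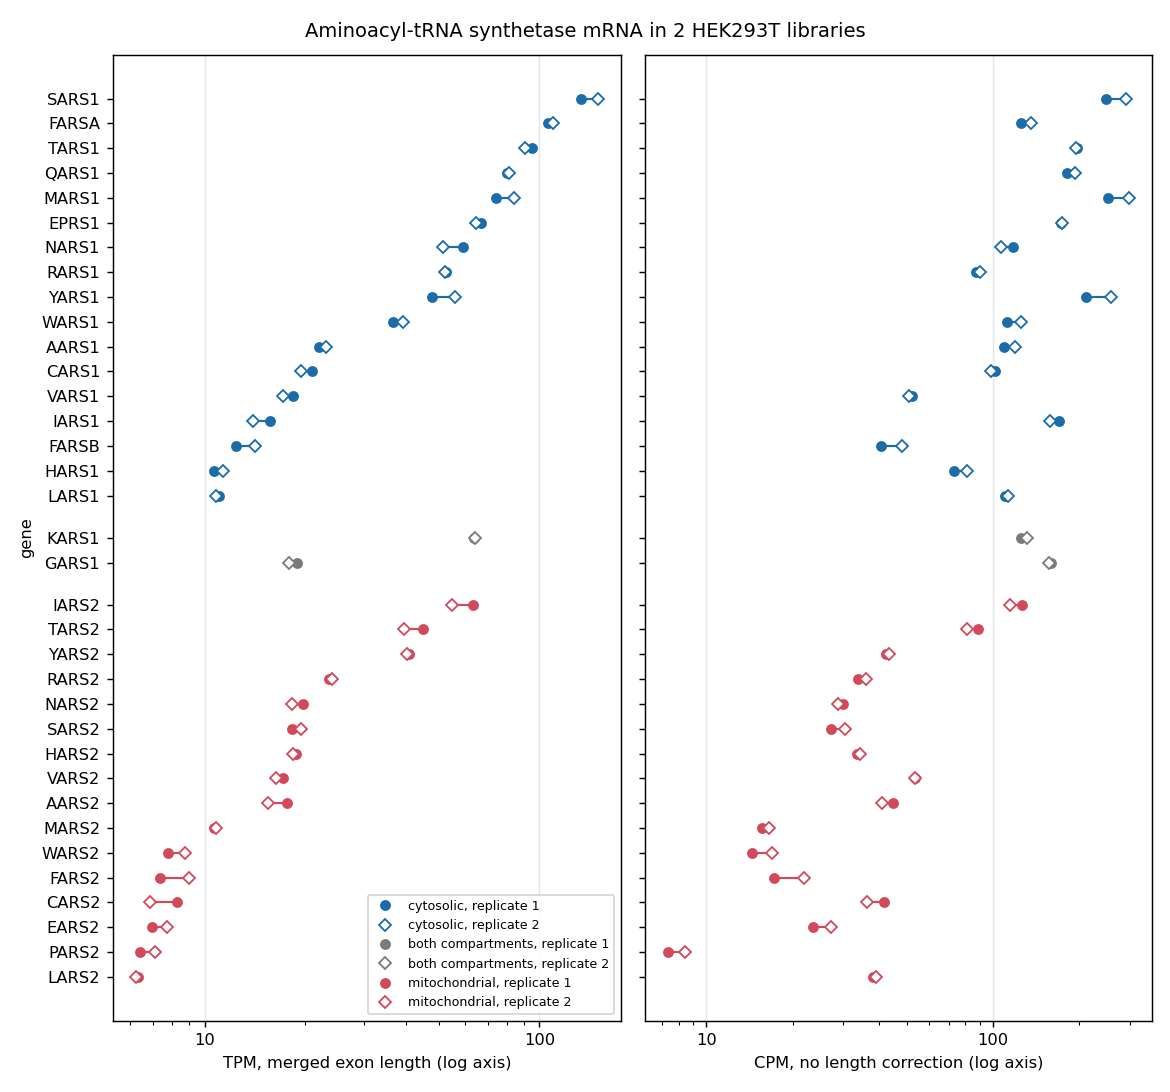
Level of each of 35 synthetase genes in replicate 1 (filled circles) and replicate 2 (open diamonds), with TPM on the left and CPM on the right, both on log axes, and cytosolic genes above genes serving both compartments and mitochondrial genes. In CPM, IARS2 (121) and TARS2 (85.0) stand highest among the mitochondrial genes, while TPM spreads the cytosolic genes from 10.9 to 141.

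Among the cytosolic genes, SARS1, the seryl-tRNA synthetase which spans bases 109213918 to 109238182 of chromosome 1 (GRCh38), was highest in TPM. It had 4472 counts in replicate 1 and 5396 in replicate 2, or 133 and 149 TPM. FARSA, the catalytic subunit of phenylalanyl-tRNA synthetase, followed with 2256 and 2516 counts (106 and 110 TPM). TARS1, the threonyl enzyme, had 3537 and 3620 counts (95.3 and 90.5 TPM). The order of these genes was the same in both libraries. The glutaminyl enzyme QARS1 had 79.8 and 81.1 TPM, the methionyl enzyme MARS1 74.3 and 84.2, and EPRS1 66.8 and 64.5. QARS1 and MARS1 overlap within their spread, and EPRS1 lay below both in each library. In raw counts MARS1 led, with 4554 in replicate 1 and 5560 in replicate 2.

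The middle of the cytosolic group in TPM held the asparaginyl enzyme NARS1 (55.3 ± 5.44 TPM), the arginyl enzyme RARS1 (52.3 ± 0.368) and the tyrosyl enzyme YARS1 (51.9 ± 5.85), which do not differ beyond their spread. For YARS1 this rests on the merged length. By transcript length YARS1 had 118 ± 15.7 TPM, against 58.5 ± 4.55 for NARS1 and 67.0 ± 0.913 for RARS1. In CPM YARS1 had 235 ± 33.6, against 112 ± 7.57 and 88.5 ± 2.09. WARS1, the tryptophanyl enzyme and a gene induced by interferon gamma in many cells, had 36.4 and 39.1 TPM. AARS1 (alanyl) had 22.5 ± 0.778 TPM, CARS1 (cysteinyl) 20.2 ± 1.03 and VARS1 (valyl) 17.8 ± 0.825. At the low end in TPM stood IARS1 (isoleucyl, 14.8 ± 1.26), FARSB (13.3 ± 1.21), HARS1 (histidyl, 11.0 ± 0.52) and LARS1 (leucyl, 10.9 ± 0.187). IARS1 and LARS1 were not low in reads. IARS1 had 3074 and 2935 counts, a CPM of 164 ± 8.95, and LARS1 had 1992 and 2094 counts, a CPM of 112 ± 1.51.

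The mitochondrial group was led by the isoleucyl enzyme IARS2, with 2281 counts in replicate 1 and 2132 in replicate 2, or 63.2 and 54.9 TPM. TARS2 (threonyl) had 1595 and 1512 counts (44.9 and 39.5 TPM) and YARS2 (tyrosyl) 765 and 809 (40.8 and 40.1 TPM). These 3 stood above the other mitochondrial genes in both libraries in TPM. For YARS2 this rests on the merged length, since VARS2 had more counts (964 and 993). By transcript length YARS2 (32.9 ± 0.256) did not differ from CARS2 (33.7 ± 3.61) beyond their spread. Of the exonic bases of YARS2, 18.1% lie in other genes too. RARS2 (arginyl) had 23.8 ± 0.278 TPM. NARS2 (asparaginyl, 18.9 ± 1.01 TPM), SARS2 (seryl, 18.8 ± 0.855), HARS2 (histidyl, 18.5 ± 0.256), VARS2 (valyl, 16.7 ± 0.526) and AARS2 (alanyl, 16.6 ± 1.51) formed a plateau with merged lengths. By transcript length these genes ran from 18.1 ± 1.27 (AARS2) to 28.7 ± 1.9 (SARS2). In SARS2 48.2% of the exonic bases lie in other genes too, and in VARS2 63.0%, so their counts are uncertain. MARS2 (methionyl) had 10.7 ± 0.0818 TPM. The lowest were WARS2 (tryptophanyl, 8.27 ± 0.688 TPM), FARS2 (phenylalanyl, 8.16 ± 1.12), CARS2 (cysteinyl, 7.56 ± 0.965), EARS2 (glutamyl, 7.31 ± 0.532), PARS2 (6.76 ± 0.474) and LARS2 (leucyl, 6.28 ± 0.0777). All 35 members lay above the protein-coding median in TPM.

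The 2 genes that serve both compartments were counted as often as the cytosolic genes. KARS1, the lysyl enzyme, had 2254 and 2438 counts (63.8 and 64.1 TPM). GARS1, the glycyl enzyme, had 2862 and 2905 counts, and its TPM of 18.9 and 17.8 was low for that number of reads. On CPM GARS1 stood at 158 ± 1.77 and KARS1 at 128 ± 4.32, both above the cytosolic median. Counting these genes as cytosolic left the median difference at 1.57 log2, and counting them as mitochondrial gave 1.50.

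The length behind TPM decided the place of several members. The length in the deposited files merges every annotated exon of a gene, and it was 17366 bases for GARS1, against 2634 for the GENCODE 29 transcript with its longest coding sequence. The merged length was 6.59 times the transcript for GARS1, 5.80 times for HARS1, 5.55 times for CARS2, 4.81 times for IARS1 and 4.33 times for LARS1. It was 1.06 times for EPRS1 and close to the transcript for MARS2 and PARS2. With transcript lengths, GARS1 stood at 97.1 ± 2.06 TPM, HARS1 at 51.3 ± 3.49, IARS1 at 57.3 ± 3.69 and CARS2 at 33.7 ± 3.61. The ratio of merged to transcript length had a median of 2.05 over cytosolic genes and 1.50 over mitochondrial genes, against 1.34 over all protein-coding genes. Which transcripts these cells make was not measured, so each TPM order is conditional on its length.

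**Figure D2:**
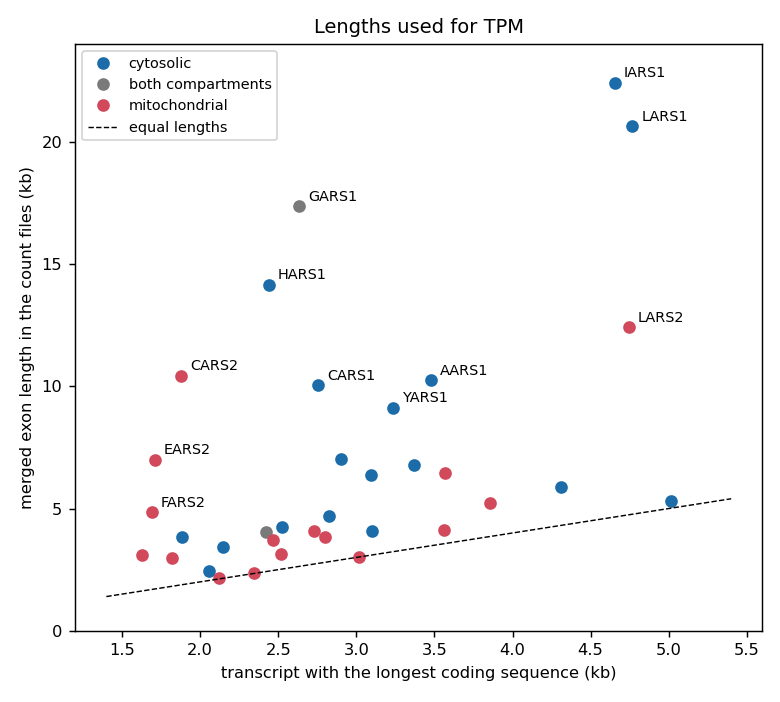
Merged exon length in the count files (vertical axis, kb) against the length of the GENCODE 29 transcript with the longest coding sequence (horizontal axis, kb) for each synthetase gene, with the dashed line at equal lengths. IARS1, LARS1, GARS1 and HARS1 lie farthest above the line, and EPRS1, MARS2 and PARS2 lie close to it.

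Amino acid by amino acid, the cytosolic enzyme usually had the more abundant mRNA. For 16 amino acids the list holds separate enzymes for the 2 compartments, with EPRS1 standing for both glutamate and proline and the mean of FARSA and FARSB for phenylalanine. The cytosolic gene was higher in both libraries for 14 of 16 in TPM and for 15 of 16 in TPM with transcript lengths or in CPM. The median log2 ratio was 1.28 in TPM, 1.54 with transcript lengths and 1.73 in CPM. In TPM the cytosolic side was 1 log2 or more above the mitochondrial side in both libraries for 10 amino acids, with EPRS1 entering for both glutamate and proline, and with transcript lengths for 13.

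In TPM the widest gaps were for proline, glutamate, serine, phenylalanine and methionine. For phenylalanine the mean of FARSA and FARSB was 7.49 ± 0.791 times FARS2 in TPM and 3.33 ± 0.338 times with transcript lengths. This gap came from FARSA, at 13.4 ± 1.51 times FARS2 in TPM, against 1.63 ± 0.0754 times for FARSB. EPRS1 was 10.4 times PARS2 in replicate 1 (exact 95% interval 8.73 to 12.5) and 9.10 times in replicate 2 (7.75 to 10.7), in TPM. This gap held with transcript lengths, at 10.3 ± 0.973 times. EPRS1 over EARS2 was 9.01 ± 0.874 times in TPM and 2.34 ± 0.227 times with transcript lengths, so its size rests on the length of EARS2. SARS1 was 7.52 ± 0.261 times SARS2 in TPM and 8.09 ± 0.281 with transcript lengths. MARS1 was 7.38 ± 0.597 times MARS2 in TPM and 17.8 ± 1.44 times with transcript lengths. WARS1 was 4.57 ± 0.153 times WARS2, with 6.87 ± 0.23 by transcript.

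Other amino acids had a smaller cytosolic excess. NARS1 was 2.92 ± 0.131 times NARS2 in TPM, CARS1 2.68 ± 0.207 times CARS2, TARS1 2.21 ± 0.12 times TARS2 and RARS1 2.20 ± 0.0412 times RARS2. LARS1 was 1.74 ± 0.00829 times LARS2. With transcript lengths these folds were between 1.76 for cysteine and 3.09 for asparagine. For alanine and tyrosine the TPM folds were 1.37 ± 0.171 and 1.28 ± 0.161, and with transcript lengths 2.96 ± 0.372 and 3.57 ± 0.449.

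Valine, histidine and isoleucine departed from this order. VARS1 had 941 and 949 counts and VARS2 had 964 and 993, and the ratio in TPM was 1.06 ± 0.0159. Its exact 95% interval included equality in replicate 1 (0.980 to 1.18) and in replicate 2 (0.961 to 1.15), so valine counts among the 14 by less than the counting error. The ratio was 0.799 ± 0.012 with transcript lengths, where VARS1 was the lower gene. The overlap of VARS2 with another gene, ENSG00000288473 on the same strand, leaves its share of the reads uncertain. HARS1 was 0.595 ± 0.0364 times HARS2 in TPM but 2.29 ± 0.14 times with transcript lengths, and its counts were 1314 and 1513 against 606 and 640. Of the exonic bases of HARS1, 8.46% lie in other genes too. The gene sharing most of them had 614 and 565 counts. Of the exonic bases of HARS2, 6.99% lie in other genes too. The gene sharing most of those, on the same strand, had 1397 and 1553 counts. How many reads of HARS1 and HARS2 fall in shared bases was not measured, so their counts and the fold by transcript length are uncertain. IARS1 was 0.251 ± 0.00378 times IARS2 in TPM and 1.04 ± 0.0157 times with transcript lengths. By counts IARS1 exceeded IARS2 (3074 and 2935 against 2281 and 2132). The isoleucyl enzymes of the 2 compartments thus had similar mRNA levels by transcript length, and the fold of each of the other 15 amino acids lay farther from equality on that scale.

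**Figure D3:**
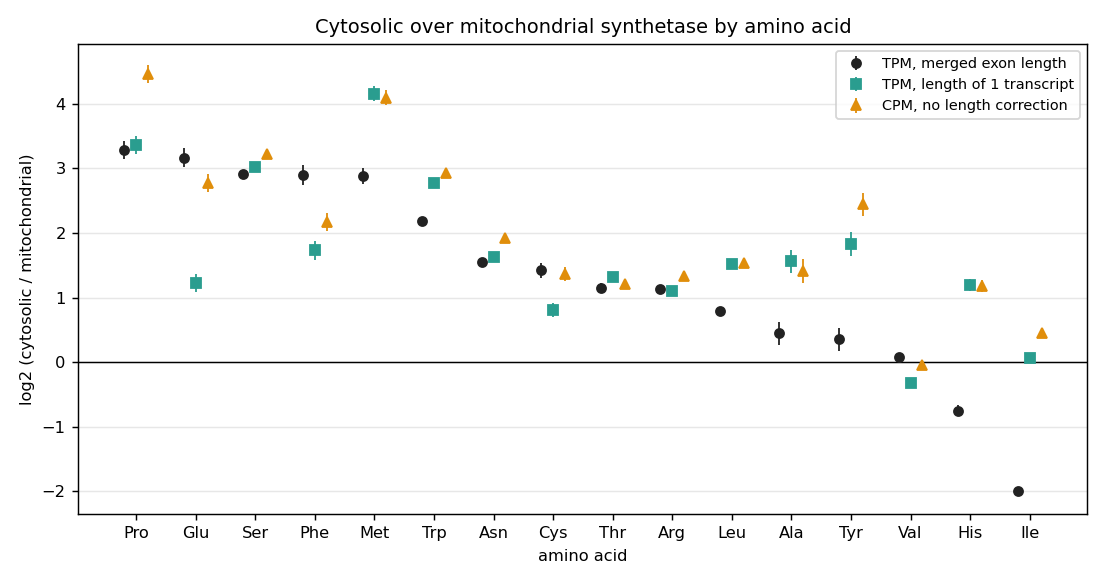
Log2 ratio of the cytosolic over the mitochondrial synthetase for each of 16 amino acids, as the mean over 2 libraries with its SD, in TPM with merged exon length (circles), TPM with transcript length (squares) and CPM (triangles). Values above 0 mean a higher cytosolic gene, and only valine, histidine and isoleucine have a symbol below 0.

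Phenylalanyl-tRNA synthetase of the cytosol is built from equal numbers of FARSA and FARSB subunits, yet the mRNAs differed. FARSA spans bases 12922479 to 12934037 of chromosome 19, and its counts were 2256 in replicate 1 and 2516 in replicate 2. FARSB spans bases 222566899 to 222656092 of chromosome 2, with 731 and 896 counts. FARSA was therefore 3.09 times FARSB in counts in replicate 1 (exact 95% interval 2.84 to 3.36) and 2.81 times in replicate 2 (2.6 to 3.03). Per length the ratio was 8.57 and 7.80 with merged exons and 5.05 and 4.60 with transcript lengths. FARSA was higher in each library on every scale. FARS2, the single-subunit mitochondrial enzyme, had 18.8 ± 2.96 TPM by transcript length, close to FARSB at 21.4 ± 2.39.

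Synthetases of the multi-synthetase complex were not clearly apart from the free enzymes. The 7 complex genes (EPRS1, IARS1, LARS1, MARS1, QARS1, RARS1 and KARS1) had a median of 63.9 TPM, against 37.8 for 11 free cytosolic genes. The difference of medians was 0.76 ± 0.0672 on the scale of log2(TPM + 0.1), was 0.18 with transcript lengths and turned to -0.58 when the coding length was used. The direction is therefore set by the length chosen. In CPM the medians were 164 and 114. The scaffold genes AIMP2 (97.4 ± 6.34 TPM) and EEF1E1 (106 ± 12.1) were above each of the 7 complex enzymes in TPM, and AIMP1 had 13.4 ± 2.25. The order depended on the scale. By transcript length AIMP2 (117 ± 5.19) was below MARS1 (154 ± 16.8), while EEF1E1 (165 ± 15.4) and MARS1 did not differ beyond their spread. In CPM AIMP2 (88.0 ± 3.04) did not differ beyond its spread from RARS1 (88.5 ± 2.09), the lowest of the 7. EEF1E1, at 109 ± 9.15 CPM, was above RARS1 and did not differ from LARS1 (112 ± 1.51) beyond their spread. It was below the other complex enzymes, from KARS1 (128 ± 4.32) to MARS1 (276 ± 32.9). By transcript length AIMP1 had 38.6 ± 5.66, and AIMP2 was still 2.83 times AIMP1 in replicate 1 and 3.27 times in replicate 2. Of the exonic bases of AIMP2, 29.1% lie in other genes too, as do 18.8% of those of EEF1E1.

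Of the genes of cytosolic elongation factor 1, EEF1A1 and EEF1B2 were above every synthetase in TPM, and EEF1D was below SARS1 and FARSA. By transcript length EEF1D was above both (309 ± 26.6, against 232 ± 23.4 for SARS1 and 103 ± 4.66 for FARSA). Elongation factor eEF1A carries aminoacyl-tRNA to the ribosome, and EEF1A1 had 134111 and 154882 counts, or 1583 ± 78.1 TPM. EEF1B2, an exchange factor subunit, had 753 ± 55.1 TPM and EEF1D 97.7 ± 6.40. EEF1G had 1769 ± 40.9 TPM, but 99.7% of its exonic bases lie in other genes too, as do 34.0% of those of EEF1D. VARS1, which binds the eEF1 exchange complex, had 17.8 TPM. In mitochondria, TUFM, the counterpart of eEF1A, had 278 ± 13.3 TPM, its exchange factor TSFM 53.1 ± 2.42 and the translocase GFM1 7.19 ± 1.21. Other genes cover 71.2% of the exonic bases of TSFM. The GatCAB subunits were unequal, with GATC at 84.2 ± 18.1 TPM, QRSL1 at 6.75 ± 0.44 and GATB at 6.01 ± 0.175, and other genes cover 47.6% of the exonic bases of GATC. By transcript length GATB had 23.8 ± 0.202 TPM and QRSL1 7.20 ± 0.32, so their near equality rests on the merged length. MTFMT, which formylates the initiator methionyl-tRNA of mitochondria, had 8.76 ± 0.277 TPM, near MARS2.

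**Figure D4:**
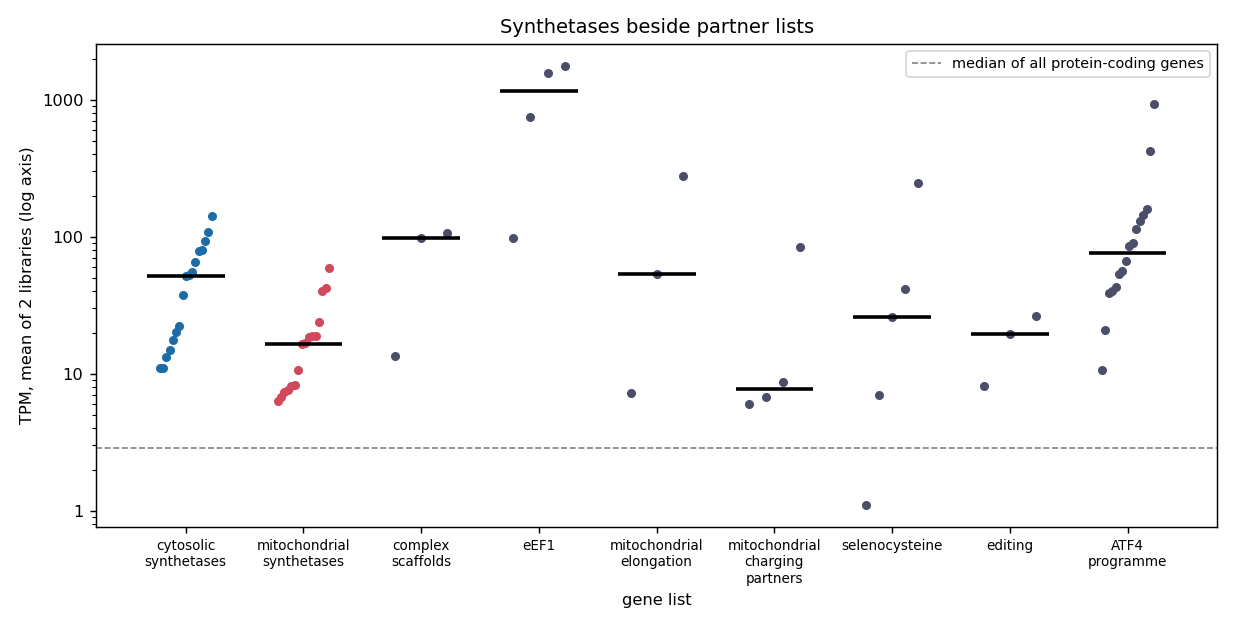
TPM (merged exon length, mean of 2 libraries, log axis) of each gene of the cytosolic and mitochondrial synthetases and of 7 partner lists, with black bars at list medians and a dashed line at the protein-coding median of 2.88. The eEF1 list has the highest median, although EEF1D (97.7) lies below SARS1 and FARSA, and the mitochondrial charging partners have the lowest median, 7.75.

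Genes of the ATF4 programme were present in these untreated cells beside the cytosolic synthetases. All 16 reached 1 CPM in both libraries, against 65.9% of 19890 protein-coding genes. Their median was 76.5 TPM, with 85.4 in replicate 1 and 67.6 in replicate 2. ATF4 itself had 932 ± 10.2 TPM, the serine synthesis genes PSAT1 and PHGDH had 424 ± 33.7 and 160 ± 3.95, and SHMT2 had 144 ± 18.6. By transcript length PHGDH (457 ± 20.7) was above PSAT1 (343 ± 20.2). ASNS, which makes asparagine, had 131 ± 5.38, and other genes cover 49.3% of its exonic bases. The stress genes DDIT3 (86.0 ± 4.63 TPM), CHAC1 (53.6 ± 3.15) and TRIB3 (40.2 ± 0.375) were lower, and other genes cover 39.6% of the exonic bases of DDIT3. XPOT, which exports tRNA from the nucleus, had 42.8 ± 6.09. SLC3A2 had 113 ± 6.45 TPM, SESN2 90.6 ± 1.14, CEBPB 66.9 ± 20.6 and MTHFD2 56.2 ± 9.11. The lowest of the 16 were SLC7A5 (38.9 ± 0.0575), ATF5 (21.0 ± 2.11) and SLC7A11 (10.7 ± 1.07). Both libraries are labelled untreated and no stressed cells were analysed here, so whether the programme was active cannot be read from these levels.

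The core of the ATF4 response element, TGATGNAA, was looked for on both strands in the promoter windows of RefSeq (GRCh38.p14), which run from 250 bases before the start site to 50 after. Windows, in some genes more than 1, were found for 30 of 35 members. AARS2, LARS1, VARS1, VARS2 and YARS1 had none. At least 1 window held the element in 6 of 14 cytosolic genes, in 1 of 14 mitochondrial genes and in 1 of the 2 genes serving both compartments, against 3.63% of 15301 protein-coding genes and 4.46% of all 27305 genes in the table. Of the 8 sites, 6 read TGATGCAA on 1 strand and 6 began within 35 bases of a start site. The 30 bases around each are given 5′ to 3′ on the strand of the gene, with the match in capitals, to show where each match lies and what surrounds it. The likeness of the capitals follows from the search.
MARS1: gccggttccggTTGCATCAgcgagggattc
CARS1: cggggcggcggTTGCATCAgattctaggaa
IARS1: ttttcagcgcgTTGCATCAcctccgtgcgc
TARS1: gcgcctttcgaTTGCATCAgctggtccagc
NARS1: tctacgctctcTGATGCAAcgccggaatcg
AARS1: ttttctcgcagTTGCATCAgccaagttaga
GARS1: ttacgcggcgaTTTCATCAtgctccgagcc
YARS2: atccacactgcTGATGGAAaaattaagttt

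The MARS1 stretch lies at chr12:57488053-57488082 on the plus strand, with the match beginning 4 bases before the start site. CARS1 (chr11:3057407-3057436, minus strand) has it 2 bases before and IARS1 (chr9:92293692-92293721, minus) 13 before. TARS1 (chr5:33440956-33440985, plus) has it 2 bases after and NARS1 (chr18:57621804-57621833, minus) 14 after. GARS1 (chr7:30594834-30594863, plus) has its site 33 bases before. AARS1 (chr16:70289675-70289704, minus) and YARS2 (chr12:32756076-32756105, minus) have theirs 187 and 197 bases before. A match is a description of letters and not a bound site. The 6 cytosolic genes with the element had a median of 38.9 TPM and 139 CPM, and the 8 without it in their window had 59.0 TPM and 125 CPM. The direction differed between the scales. In the ATF4 programme list, 3 of the 14 genes with a window held the element, ASNS, CHAC1 and SLC3A2.

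The histidyl genes are neighbours that point away from each other. RefSeq places the start of HARS1 (minus strand) at base 140691370 and that of HARS2 (plus strand) at base 140691455 of chromosome 5, so 84 bases separate the starts of a cytosolic and a mitochondrial enzyme. The gene models of the count files overlap in part of this stretch. In them HARS2 begins inside it at base 140691430, and HARS1, on the minus strand, begins beyond it at base 140691537. The stretch lies at chr5:140691371-140691454, has 59.5% G and C, and is given on the strand of HARS2, with capitals at CCGGAAGT and its complement ACTTCCGG, the recognition letters of ETS-family factors.
HARS1 and HARS2: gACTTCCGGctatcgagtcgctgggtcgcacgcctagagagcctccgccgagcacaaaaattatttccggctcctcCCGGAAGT

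These letters were searched after the stretch had been seen, and 7.10% of 15301 protein-coding genes hold them in a window. HARS1 had 73.0 and 81.5 CPM and HARS2 had 33.6 and 34.5 CPM, both uncertain for the shared exonic bases given above. Which start sites these reads came from was not measured. The order of the pair was the reverse in TPM with merged lengths, as given above.

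The libraries gave close values for the synthetases. None of the 35 members differed by 1 log2 or more between replicate 1 and replicate 2, against 1.92% of 14704 genes averaging 50 counts or more that were higher in replicate 1 and 0.143% that were lower. The ratios, log2 of replicate 1 over replicate 2 from edgeR with TMM scaling, ran from -0.37 to 0.17, and 29 of 35 were within 0.25. Their median absolute size was 0.11, against 0.19 for all genes counted. The latter include genes with fewer counts, whose ratios spread more. The 5th to 95th percentile of all genes ran from -0.73 to 0.82 at a log2 mean count of 5.75, and from -0.32 to 0.30 at 11.25. Whether the members were closer than genes of like depth was not tested. At the shares above, few or none of 35 genes would pass 1 log2. FARS2 was lowest, with 311 and 407 counts (-0.37), followed by YARS1 with 3801 and 4803 (-0.32). CARS2 was highest, with 750 and 674 counts (0.17).

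Counting error alone does not cover all of these differences. The exact 95% interval of the ratio excluded equality in 14 members that were lower in replicate 1 and in 4 that were higher, against 22.4% and 24.6% of all genes counted. The latter include genes with fewer counts, whose intervals are wider. The median ratio of all genes also moved with depth, from 0.034 at a log2 mean count of 8.75 to -0.061 at 11.25. The members' median was -0.079, and whether they differ from genes of like depth was not tested. Among cytosolic genes 13 were lower and 4 higher in replicate 1 without regard to the interval, and among mitochondrial genes 11 were lower and 5 higher. The well-counted MARS1 (-0.27) and SARS1 (-0.26) were among those lower in replicate 1. Each ratio compares single libraries, so it has no replicate check and was given no p-value.

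**Figure D5:**
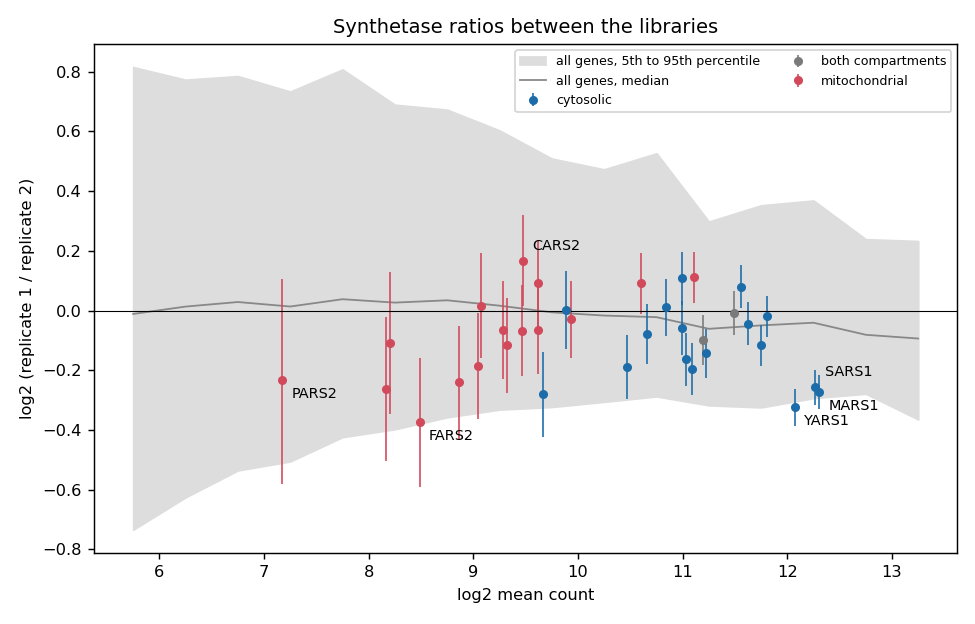
Log2 ratio of replicate 1 over replicate 2 against log2 mean count for the synthetase genes, with bars for the exact 95% counting interval, over the 5th to 95th percentile of all genes averaging 50 counts or more (grey). The members lie between -0.37 and 0.17, and YARS1 and FARS2 are farthest below 0.

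The mRNAs differ in size and position as well as level. The median coding length was 2268 bases for cytosolic genes and 1647 for mitochondrial genes, against 1287 for all protein-coding genes. Their G and C content was alike, with a median of 51.8% in cytosolic and 52.4% in mitochondrial transcripts. The members lie on 14 chromosomes, and 21 of 35 share at least some exonic bases with another gene. Apart from SARS2 and VARS2, no member shares 25% or more. Without these genes the cytosolic excess was 1.89 log2 in median TPM, and the cytosolic gene was higher in 12 of the 14 remaining amino acids.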

How the data were processed

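RNA was reverse-transcribed with an oligo(dT) primer and the sheared cDNA was built into libraries with a single-strand kit, per the labels' protocols. The files hold raw counts per Ensembl gene, not normalised by the authors, per the file headers. Build GRCh38, featureCounts 2.0.3, Trim Galore 0.6.7 and bcl2fastq 2.17 are listed, per the submitters' processing notes. The aligner, annotation release and handling of strand and overlap were not given in the sources used here. Of 837 pairs in which 1 gene lies wholly inside exons of an opposite-strand gene, 523 inner genes had counts in replicate 1 and 0 exceeded the outer gene, so overlapping genes are treated as uncertain.

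CPM and TPM were computed from the counts, their totals and the deposited exon lengths. Symbols matched 60463 IDs. Gene types, coding lengths and transcript lengths came from GENCODE 29, and exonic overlap from bedtools 2.31.1 on the deposited coordinates. Ratios used edgeR 4.0.16 in R 4.3.3 with a prior count of 2 and TMM scaling, whose factors were 1.01 for replicate 1 and 0.989 for replicate 2. DESeq2 1.42.0 size factors were an alternative. The common biological coefficient of variation was 15.6%. The ratio and level steps were tested on simulated data. Intervals are exact at 95%. Members and lists were chosen with earlier results of these data known, and all 35 members are named. No test between groups was run, since the labels give 1 group.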

Additional observations from a re-analysis of the deposited data

How the results depend on the processing

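The cytosolic excess in median log2 level was 1.57. It was 1.81 with CPM, 1.36 with transcript lengths (an alternative chosen after seeing the data), 1.89 without SARS2 and VARS2, and 1.52 with coding lengths or with a pseudocount of 1. Leaving out a replicate gave 1.46 to 1.69. The difference between complex and free enzymes, 0.76, was 0.50 with CPM, 0.18 with transcript lengths and -0.58 with coding lengths, where it reversed (the median coding length is 2700 bases in complex members and 1644 in free ones), and 0.71 to 0.81 without either replicate. The mitochondrial share of counts was 0.0552% without SARS2 and VARS2 and 0.0630% to 0.0639% without either replicate, and the cytosolic share was 0.236% to 0.254%. The count of amino acids with a higher cytosolic gene was 12 to 15 over its alternatives, and 14 without either replicate. Detection gave 34 or 35 members from 0.5 to 10 CPM. No member passed 1 log2 between libraries with DESeq2 size factors, library totals alone, no filter on counts or a prior count of 0.5. No paired analysis was possible because the labels give 1 group. Depth limits PARS2 most, with 132 and 157 counts.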

Other observations

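Factors beside the main charging enzymes were expressed at uneven levels. Selenocysteine is made on its own tRNA after SARS1 has charged it with serine. SEPHS2, which makes selenophosphate, had 246 ± 8.37 TPM and SEPHS1 41.6 ± 5.82. The dedicated elongation factor EEFSEC had 26.0 ± 1.04 TPM and the kinase PSTK 7.06 ± 0.332, but by transcript length PSTK had 31.6 ± 0.831 and EEFSEC 22.4 ± 0.43, the other order. SEPSECS, which performs the last step, had 102 and 89 counts, or 1.11 ± 0.165 TPM, and was the only one of these 5 genes below the protein-coding median of 2.88 TPM. By transcript length it had 1.54 ± 0.197 TPM.

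Free-standing editing factors remove wrongly attached amino acids. DTD1 had 26.3 ± 0.59 TPM, AARSD1 19.6 ± 1.46 and DTD2 8.17 ± 0.571. Other genes cover 34.2% of the exonic bases of AARSD1 and 72.2% of those of DTD2, so both are uncertain.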
